A study of Mus musculus with 22 samples.

Results

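The 5 genes described here encode histone H3 lysine 9 (H3K9) methyltransferases: Ehmt1, Ehmt2, Setdb1, Suv39h1 and Suv39h2. They were chosen by gene symbol in both deposited count tables, which list 37991 genes for the Tet1 cross and 37620 genes for the MF1 cross, and all 5 were found in each. The rule itself used symbols and no measured value, but it was set with earlier results of these data known. Their identifiers in the tables are ENSMUSG00000036893 for Ehmt1 and ENSMUSG00000013787 for Ehmt2. Setdb1 is listed as ENSMUSG00000015697, Suv39h1 as ENSMUSG00000039231 and Suv39h2 as ENSMUSG00000026646. Ehmt1 and Suv39h2 lie on mouse chromosome 2, Ehmt2 on chromosome 17, Setdb1 on chromosome 3 and Suv39h1 on chromosome X.

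Methylation of H3K9 marks silent chromatin. Ehmt1 (GLP) and Ehmt2 (G9a) work as a heterodimer that places mono- and dimethylation on euchromatin, the dimethyl mark whose level falls early in mouse primordial germ cells. Suv39h1 and Suv39h2 are paralogues that trimethylate H3K9 at pericentromeric heterochromatin, which HP1 proteins then bind. Setdb1 (ESET) trimethylates H3K9 at endogenous retroviruses, to which zinc finger proteins recruit it through Trim28.

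RNA had been sequenced from sorted mouse primordial germ cells (PGCs), from which eggs and sperm later form, in 22 libraries of 11 groups with 2 libraries each. In the Tet1 cross, parents heterozygous for a Tet1 knockout and carrying the GOF18ΔPE-EGFP germ cell reporter gave Tet1-KO and Tet1-WT embryos; Tet1 encodes an enzyme that oxidises 5-methylcytosine. Its 10 groups are Tet1-KO and Tet1-WT PGCs at E10.5 (E is the embryonic day, sexes not separated), in males and females at E12.5, and in males and females at E14.5. Each library pooled RNA of 2 to 6 embryos of one genotype and stage, and of one sex at E12.5 and E14.5 only. The remaining group is wild-type E10.5 PGCs from MF1 females crossed to GOF18ΔPE-EGFP males, 600 to 1000 sorted cells a library, extracted with another RNA kit. The labels do not say that the pools of a group came from separate litters, so p-values measure the spread between these libraries only. Total counts ranged over 9616436 to 25899505 per library in the Tet1 cross and over 59415040 to 66924911 in the MF1 cross.

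Before the genes are compared, the libraries need to be read against their labels. CPM values are counts relative to library size, scaled by TMM factors. Those of Tet1 were lower in both Tet1-KO than in both Tet1-WT libraries at E12.5 and E14.5 in each sex. At E10.5 they were 44.5 and 102 in those labelled Tet1-KO and 134 and 76.8 in those labelled Tet1-WT, which overlap. In edgeR tests of Tet1-KO minus Tet1-WT (log2), Tet1 itself was called under 0.05 for E12.5 females (-1.73, adjusted p = 0.0303). The average of the 5 stage and sex groups was also called (-1.15, adjusted p = 0.00038). Tet1 was not called for E12.5 males (-1.57, adjusted p = 0.0553) or at E10.5 (-0.52, adjusted p = 0.388). Nor was it called for E14.5 females (-0.85, adjusted p = 0.204) or E14.5 males (-1.05, adjusted p = 0.292). The summed CPM of 12 germ cell markers was 4046 to 6153 in the libraries labelled Tet1-KO and 1462 to 1799 in those labelled Tet1-WT at E10.5, the lowest sum of any group. The summed CPM of 15 gonadal and mesonephric mesenchyme markers was 392 to 917 in the E10.5 libraries labelled Tet1-KO and 1752 to 2010 in those labelled Tet1-WT. At E12.5 it was 175 to 275 in Tet1-KO against 1237 to 1951 in Tet1-WT males, and 46.0 to 49.1 in Tet1-KO against 839 to 1205 in Tet1-WT females. At E14.5 it was 15.8 to 42.7 in every library. In such pooled samples, fewer cells of a type and less RNA per cell cannot be told apart.

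All 5 genes were detected in every library. Because longer transcripts collect more reads, levels are compared between genes only as CPM per kilobase of exon, with lengths from a later annotation than the one counted. Over the 20 libraries of the Tet1 cross, Setdb1 had a median of 30.9 CPM per kb (lowest 13.997 and highest 78.4) and Suv39h1 26.8 (15.3 to 62.1). Ehmt1 followed at 11.2 CPM per kb (6.65 to 18.7), while Suv39h2 at 4.48 (2.84 to 5.73) and Ehmt2 at 3.74 (2.35 to 10.1) were lowest by median. Ehmt2 and Suv39h2 were below both Setdb1 and Suv39h1 in all 20 libraries, but within each of these pairs the order varied, with Suv39h1 above Setdb1 in 8 libraries and Ehmt2 above Suv39h2 in 11. Ehmt1 was the highest of the 5 in 1 E10.5 Tet1-WT library, and Ehmt2 exceeded it in 1 E14.5 male Tet1-WT library. Raw counts in single libraries of the Tet1 cross ranged from 163 for Ehmt2 to 10671 for Setdb1. All 5 passed the filter on low counts.

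Setdb1 and Suv39h1 varied most between groups. The highest group mean CPM was 4.45 times the lowest for Setdb1 and 3.68 times for Suv39h1, against 2.80 times for Ehmt2, 2.22 times for Ehmt1 and 1.78 times for Suv39h2. Both genes had their highest mean in E14.5 female Tet1-WT PGCs and their lowest at E10.5, Setdb1 in Tet1-WT and Suv39h1 in Tet1-KO libraries. In the order of the 10 group means, only 3 pairs of neighbours had libraries that did not overlap for Setdb1 and 3 for Suv39h1, and 2 for each of the other 3 genes. No share of all genes is given for such gaps, so these counts describe the order only.

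**Figure D1:**
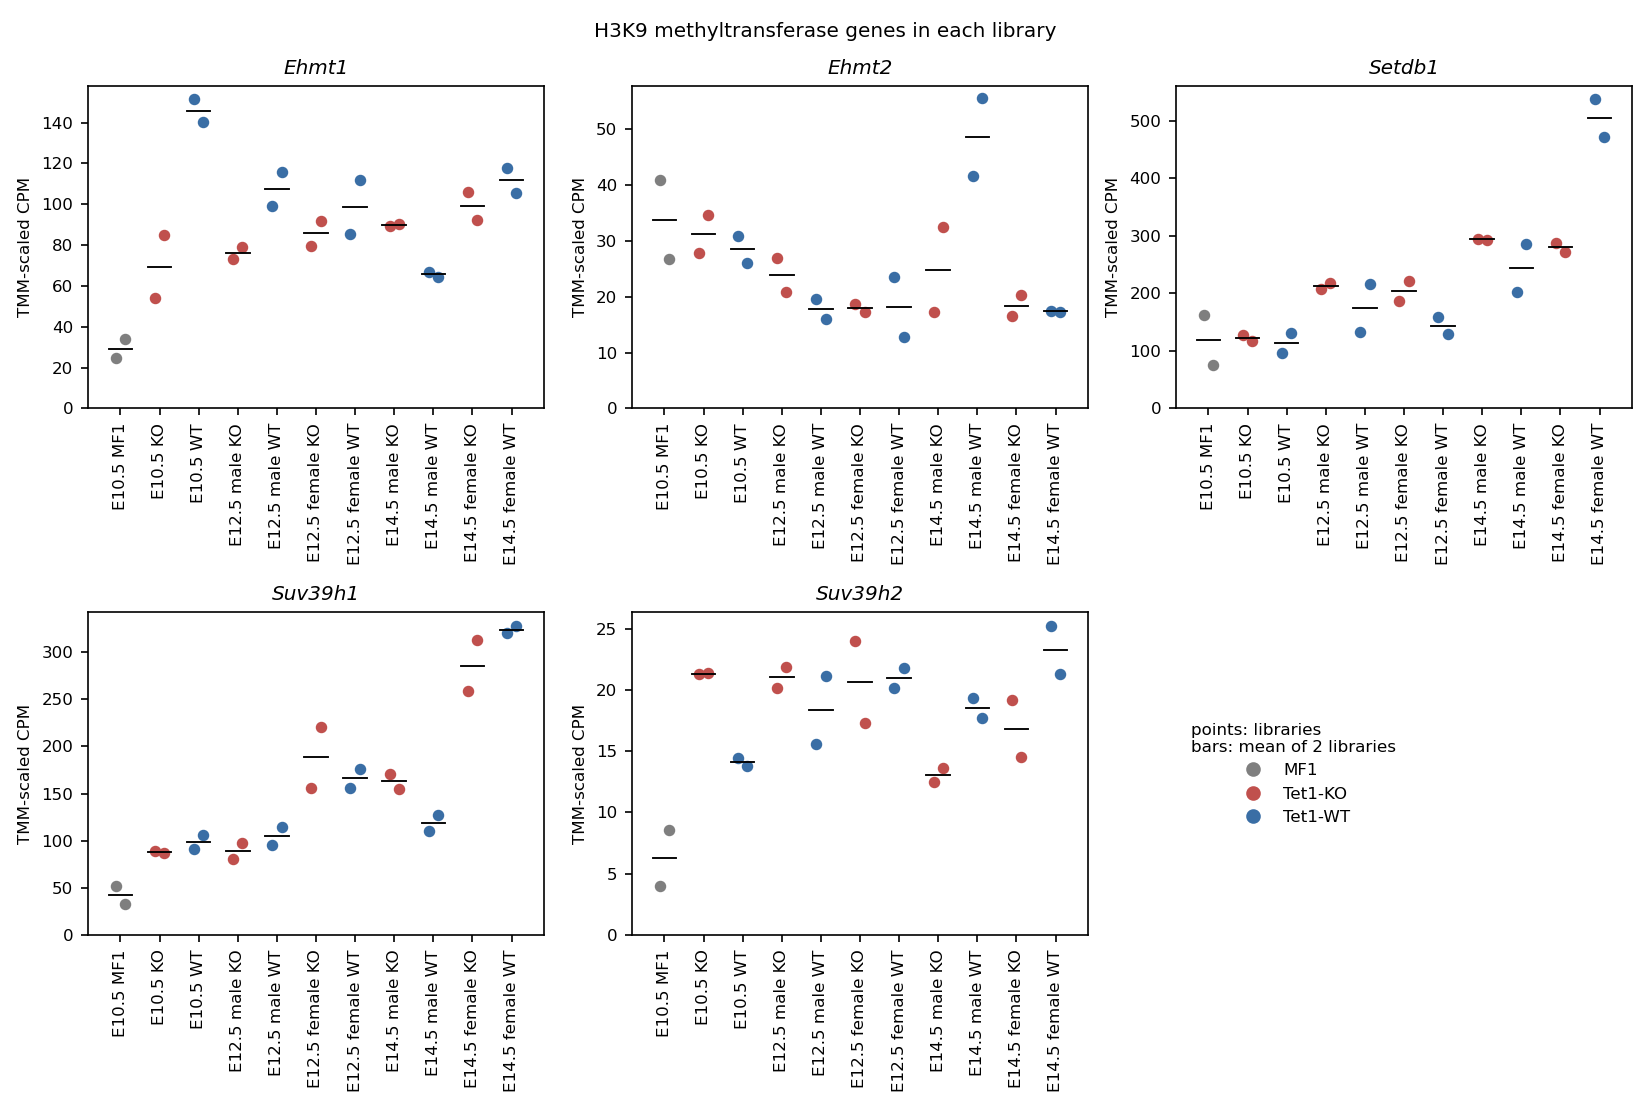
TMM-scaled CPM of the 5 genes (linear axis from 0) in each library of the 11 groups, Tet1-KO in red, Tet1-WT in blue, MF1 in grey; bars are means of 2 libraries. The 2 E14.5 female Tet1-WT libraries stand highest for Setdb1, at 471 and 537 CPM, and MF1 values were scaled in a separate fit with the E10.5 Tet1-WT libraries.

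The promoter windows of Setdb1 and Suv39h1 are shown because both genes rose with stage, as given in the stage comparisons. They run from 250 bases before to 50 bases after each RefSeq start, in the GRCm38.p6 table, 5′ to 3′ on the minus strand that both genes use, and capitals mark CCAAT, the NF-Y motif, or its reverse complement ATTGG. Setdb1 is at chr3:95357153-95357452, and Suv39h1 has an upstream start at chrX:8074711-8075010 and a downstream start at chrX:8074312-8074611.
Setdb1: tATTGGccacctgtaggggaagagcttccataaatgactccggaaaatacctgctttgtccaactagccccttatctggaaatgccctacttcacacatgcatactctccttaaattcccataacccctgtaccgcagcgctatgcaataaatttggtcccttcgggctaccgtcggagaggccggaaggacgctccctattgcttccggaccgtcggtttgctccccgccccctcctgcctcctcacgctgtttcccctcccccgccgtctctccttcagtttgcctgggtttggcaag
Suv39h1 upstream start: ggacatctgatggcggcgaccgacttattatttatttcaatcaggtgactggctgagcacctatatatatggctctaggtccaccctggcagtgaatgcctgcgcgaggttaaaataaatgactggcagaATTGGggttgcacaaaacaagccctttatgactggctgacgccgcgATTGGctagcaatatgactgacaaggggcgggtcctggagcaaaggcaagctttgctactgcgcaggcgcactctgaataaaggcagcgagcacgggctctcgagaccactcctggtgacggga
Suv39h1 downstream start: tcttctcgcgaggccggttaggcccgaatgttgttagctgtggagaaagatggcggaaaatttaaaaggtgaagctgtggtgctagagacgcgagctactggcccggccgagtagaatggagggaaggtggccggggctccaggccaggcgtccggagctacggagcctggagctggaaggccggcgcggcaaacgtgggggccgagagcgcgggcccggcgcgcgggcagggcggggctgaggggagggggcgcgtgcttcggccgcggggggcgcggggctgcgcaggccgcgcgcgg
CCAAT was found 1 time in the Setdb1 window and 2 times in the upstream Suv39h1 window, on either strand, and not in the downstream Suv39h1 window or the 4 windows of Ehmt1, Ehmt2 and Suv39h2. These letters occur in 37.4% of all 32851 promoter windows of the table. The Setdb1 and upstream Suv39h1 windows hold 15 CpG dinucleotides each, whereas the windows of the other 3 genes and of the downstream Suv39h1 start hold 28 to 40, against a median of 7 over all windows. GGGCGG, the Sp/KLF motif, was found on either strand in all 7 windows and in 35.7% of the table. CNCCTCAG, the motif of the meiotic regulator STRA8, was found only in the downstream Suv39h1 window and in 7.94% of the table. AAGATGGC, the YY1 motif, was in the downstream Suv39h1 and the Suv39h2 windows (2.75% of the table). GGCGGGAA, the E2F motif (2.19%), and TGACGTCA, the CREB motif (1.79%), were found only in the Suv39h2 window.

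Over development, Setdb1 and Suv39h1 rose while Suv39h2 and Ehmt1 passed the test at no step. Ehmt2 was called lower in females by E12.5 and higher in males by E14.5, and its male difference by E12.5, -0.53 (log2), was not called. E12.5 and E14.5 were compared within a sex over both genotypes. The E10.5 libraries, whose sexes were not separated, were the shared start of both sexes. A difference between E10.5 and E12.5 can therefore not be told apart from a difference in sex make-up. Tests used edgeR's quasi-likelihood fit, and p-values were Benjamini-Hochberg adjusted over the 17567 genes tested. Between E10.5 and E12.5, 1 of the 5 genes was called at an adjusted p under 0.05 in males and 3 in females, where 19.6% and 24.9% of all genes were called. Between E12.5 and E14.5, 3 were called in males and 2 in females, where 22.4% and 31.4% of all genes were called.

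At E10.5 the libraries labelled Tet1-KO had 127 and 117 CPM of Setdb1, and those labelled Tet1-WT 95.9 and 131 CPM. In males it had 208 and 217 CPM in Tet1-KO and 133 and 216 in Tet1-WT PGCs at E12.5, then 294 and 293 in Tet1-KO and 203 and 285 in Tet1-WT PGCs at E14.5. In females it had 187 and 222 CPM in Tet1-KO and 159 and 129 in Tet1-WT PGCs at E12.5, then 288 and 272 in Tet1-KO and 537 and 471 in Tet1-WT PGCs at E14.5. Every E14.5 female library lay above every E12.5 female library, while the male libraries of the 2 stages overlapped, since 1 Tet1-WT library at E14.5 lay below 3 of the E12.5 libraries. Setdb1 rose by E12.5 by 0.71 in males (log2, SE 0.16, adjusted p = 0.0048) and by 0.54 in females (SE 0.16, adjusted p = 0.0191). The E12.5 call held in all 8 leave-one-out fits in males and in 6 of 8 in females, and in Tet1-WT libraries alone the values were 0.63 in males (adjusted p = 0.0935) and 0.34 in females (adjusted p = 0.338). It rose again by E14.5, by 1.13 in females (log2, SE 0.16, adjusted p = 5.53e-05) and by 0.48 in males (SE 0.16, adjusted p = 0.0388). The female E14.5 call held whichever of the 8 libraries was left out, but the male one in only 2 of 8, with adjusted p up to 0.193 without E14.5 Tet1-WT replicate 2. The female rise was 1.81 in Tet1-WT libraries alone (adjusted p = 3.44e-05) and 0.46 in Tet1-KO libraries alone (adjusted p = 0.215).

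Suv39h1 had 89.5 and 86.7 CPM in the E10.5 libraries labelled Tet1-KO and 91.2 and 106 in those labelled Tet1-WT. In females it had 156 and 221 CPM in Tet1-KO and 156 and 176 in Tet1-WT PGCs at E12.5, then 259 and 313 in Tet1-KO and 320.4 and 327 in Tet1-WT PGCs at E14.5. In males it had 80.7 and 97.5 CPM in Tet1-KO and 95.3 and 115 in Tet1-WT PGCs at E12.5, then 170.4 and 155 in Tet1-KO and 110.3 and 127 in Tet1-WT PGCs at E14.5. The E10.5, E12.5 female and E14.5 female libraries did not overlap, whereas E12.5 males overlapped the E10.5 libraries. Suv39h1 was higher by 0.92 in E12.5 females than in the unsexed E10.5 libraries (log2, SE 0.13, adjusted p = 0.00011). Because Suv39h1 is X-linked and differed between the sexes at E12.5, stage and sex make-up cannot be told apart in that value. Within females Suv39h1 rose by 0.78 from E12.5 to E14.5 (SE 0.13, adjusted p = 0.000236). Both calls held in all 8 leave-one-out fits. In males the E12.5 change was 0.05 (log2, SE 0.13, adjusted p = 0.856) and the E14.5 rise was 0.52 (SE 0.13, adjusted p = 0.00875). The male rise was 0.87 in Tet1-KO libraries alone (adjusted p = 0.00756) and 0.17 in Tet1-WT libraries alone (adjusted p = 0.586).

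Its paralogue Suv39h2 stayed between 12.515 and 25.3 CPM in all 20 libraries of the Tet1 cross and was called in none of the 18 comparisons made here. Its largest stage change was a difference of -0.34 between E14.5 and E12.5 males (log2, SE 0.19, adjusted p = 0.227). Per kilobase, Suv39h1 therefore exceeded Suv39h2 in every library, by a median of 4.395 times at E10.5. The ratio had medians of 4.14 in males and 6.62 in females at E12.5, and 7.78 in males and 12.1 in females at E14.5. Suv39h2 has exons that overlap exons of Dclre1c, a DNA repair nuclease gene on the opposite strand. Dclre1c had 4.69 to 18.7 CPM in the same libraries. The strand setting of the counting is not given in the sources used here, so reads in the overlap cannot be assigned to either gene. The antisense gene Gm14820, which overlaps Suv39h1, had at most 0.894 CPM in the Tet1 cross. On the opposite strand to Setdb1, 1 annotated exon of Cers2 overlaps Setdb1 exons, and Cers2 had 15.4 to 97.2 CPM.

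Ehmt2, whose catalytic domain does most of the heterodimer's H3K9 methylation in mouse embryonic stem cells, had 27.8 and 34.7 CPM in the E10.5 libraries labelled Tet1-KO and 31.0 and 26.1 in those labelled Tet1-WT. At E12.5 it had 26.9 and 20.8 CPM in Tet1-KO and 19.7 and 16.1 in Tet1-WT males, and 18.7 and 17.3 in Tet1-KO and 23.5 and 12.9 in Tet1-WT females. At E14.5 it had 17.3 and 32.4 CPM in Tet1-KO and 41.7 and 55.6 in Tet1-WT males, and 16.6 and 20.2 in Tet1-KO and 17.5 and 17.3 in Tet1-WT females. The 2 E14.5 male Tet1-WT libraries held the highest values of the gene, and the other E14.5 males overlapped the earlier stages. Ehmt2 fell by 0.72 between E10.5 and E12.5 in females (log2, SE 0.24, adjusted p = 0.0348) and rose by 0.75 between E12.5 and E14.5 in males (SE 0.24, adjusted p = 0.0318). The first call was kept in 3 of 8 leave-one-out fits and the second in 2 of 8, with adjusted p up to 0.172 without E12.5 female Tet1-WT replicate 2 and up to 0.227 without 1 E14.5 male Tet1-KO library. The male rise was 1.44 in Tet1-WT libraries alone (adjusted p = 0.011) and 0.06 in Tet1-KO libraries alone (adjusted p = 0.953). Between E10.5 and E12.5 males Ehmt2 differed by -0.53 (log2, SE 0.23, adjusted p = 0.128), which was not called. Its male minus its female change from E12.5 to E14.5 was 0.77 (log2, SE 0.33, adjusted p = 0.129), also not called.

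Ehmt1, the other subunit, differed by -0.23 to 0.20 (log2) over the 4 stage comparisons and was called in none of them by edgeR. In Tet1-WT libraries alone it fell by 0.71 between E12.5 and E14.5 males (adjusted p = 0.0306). Per kilobase, Ehmt1 exceeded Ehmt2 by a median of 2.48 times at E10.5, 2.99 in males and 3.24 in females at E12.5, and 1.49 in males and 4.23 in females at E14.5. The E14.5 males ranged from 0.786 in a Tet1-WT library to 3.50 in a Tet1-KO library, the only group of the Tet1 cross with a library below 1.

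The mesenchyme marker sums given above moved with these stage comparisons, being higher in every E10.5 and E12.5 library than in any E14.5 library. With the mesenchyme level as a covariate none of the stage calls of the 5 genes remained, and Setdb1 turned to -0.08 between E10.5 and E12.5 females and to -0.63 between E12.5 and E14.5 males. That fit sets the slope of the covariate only from differences between the 2 libraries of a group and applies it across stages. Loss of a call in it therefore does not measure the part of the markers. Within Tet1-KO females the sums were 15.8 to 24.4 CPM at E14.5 and 46.0 to 49.1 CPM at E12.5, without overlap, and the E14.5 minus E12.5 difference was 0.60 for Suv39h1 (log2, adjusted p = 0.0441) and 0.46 for Setdb1 (adjusted p = 0.215). The part of the marker sums in these values was not tested.

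**Figure D2:**
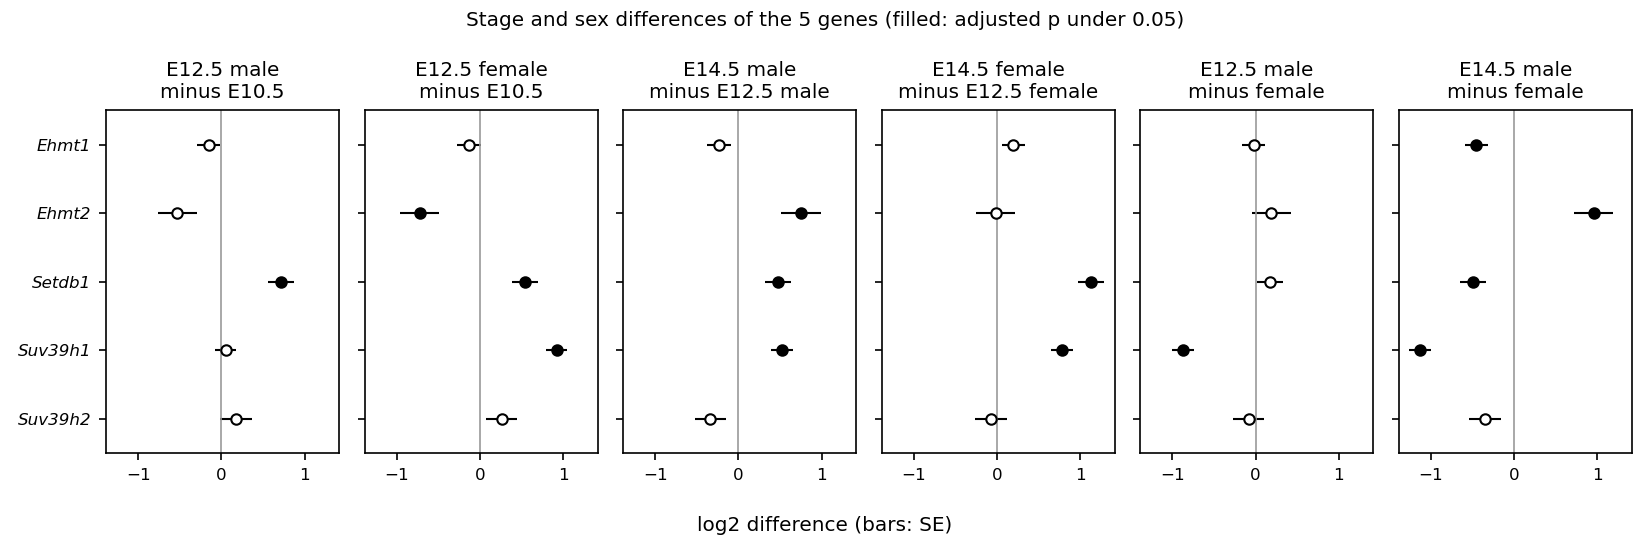
Log2 differences (x axes, bars are SE) of the 5 genes between stages and between males and females, over both genotypes. Stages are compared within each sex, with the unsexed E10.5 libraries as the shared start. Filled points have an edgeR adjusted p under 0.05. Setdb1 is above 0 in all 4 stage panels, and Suv39h1 is the only filled point between E12.5 males and females, at -0.87.

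**Figure D3:**
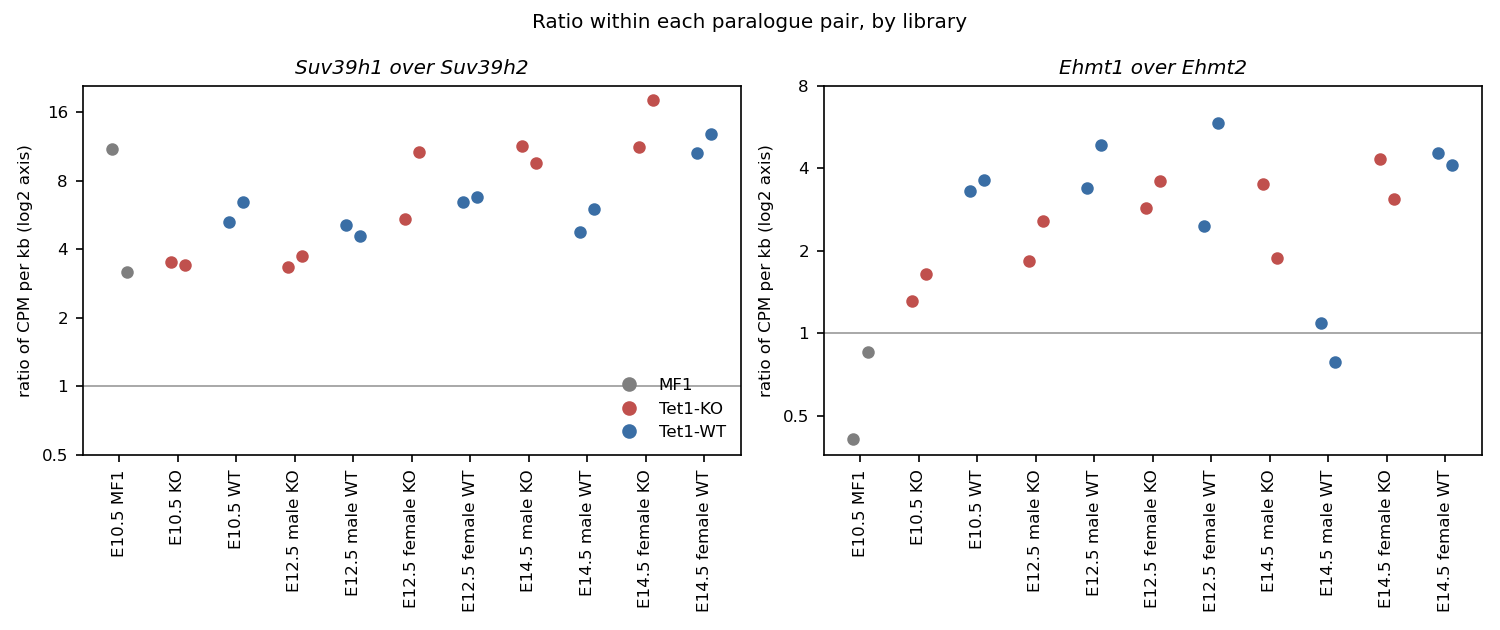
Ratio of CPM per kb within each paralogue pair (log2 axis) in each library, by group. Suv39h1 exceeds Suv39h2 in every library, with a median of 12.1 in E14.5 females, while Ehmt1 over Ehmt2 drops below 1 in 1 E14.5 male Tet1-WT library, at 0.786, and in both MF1 libraries.

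The sexes differed in 4 of the 5 genes at E14.5 and in 1 at E12.5. Suv39h1, on chromosome X, was lower in males at both stages, and at E14.5 Ehmt1 and Setdb1 were lower and Ehmt2 higher in males. The 2 X chromosomes of female PGCs are both active after the inactive one is reactivated, around these stages. Over all genes, 2.45% were called between males and females at E12.5 and 37.6% at E14.5. Marker sums moved with sex as well. At E14.5 the germ cell sums were 10865 to 11522 CPM in males and 5566 to 6457 in females, and the summed CPM of 6 Sertoli cell markers was 32.9 to 92.4 in males and 1.06 to 6.99 in females. At E12.5 the Sertoli sums were 14.8 to 50.3 CPM in males and at most 12.25 in females, and 4 of the 15 mesenchyme markers were called higher in males and 0 lower, with a list median of 1.31 (log2). The part of these markers in the differences between the sexes was not tested.

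At E12.5 Suv39h1 had a mean of 97.1 ± 14.05 CPM in males and 177 ± 30.7 in females (SD, n = 4 libraries each, 2 of each genotype), and at E14.5 141 ± 27.1 in males and 305 ± 31.3 in females. No male library reached a female one at either stage. The difference was -0.87 at E12.5 (log2, SE 0.13, adjusted p = 0.002) and -1.13 at E14.5 (SE 0.13, adjusted p = 6.33e-06), which is 1.83 and 2.19 times lower in males. Both calls held in all 8 leave-one-out fits. The E14.5 call also held within each genotype, but at E12.5 the difference was -0.66 within Tet1-WT (adjusted p = 0.116) and -1.08 within Tet1-KO libraries (adjusted p = 0.0152), and it was -0.81 with the mesenchyme covariate (adjusted p = 0.239). Its male change with stage differed from its female change by -0.26 (log2, SE 0.18, adjusted p = 0.371).

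The other X-linked genes give the context for that value. The median difference of 725 X-linked genes tested was -0.23 at E12.5 and -0.48 at E14.5 (log2, males minus females), against 0.00 and 0.01 for 16058 autosomal genes. At E12.5, 10.9% of X-linked genes were called lower in males, against 0.959% of autosomal genes, and at E14.5 31.6% against 17.7%. Suv39h1 lay below the X-linked median at both stages.

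At E14.5 the other 3 called genes were autosomal, and each passed the test within Tet1-WT but not within Tet1-KO libraries. The difference between the genotypes in these values was itself tested, and was called for none of them: it was -1.05 for Ehmt2 (log2, adjusted p = 0.291), 0.62 for Ehmt1 (adjusted p = 0.303) and 1.11 for Setdb1 (adjusted p = 0.0879). Ehmt2 averaged 36.8 ± 16.1 CPM in males and 17.9 ± 1.60 in females (SD, n = 4 each), with 1 Tet1-KO male library inside the female range, and was higher in males by 0.96 (log2, SE 0.24, adjusted p = 0.00469). That difference was 1.48 within Tet1-WT (adjusted p = 0.00372) and 0.43 within Tet1-KO libraries (adjusted p = 0.401). Ehmt1 averaged 77.9 ± 14.01 CPM in males and 106 ± 10.4 in females, without overlap, and differed by -0.45 (log2, SE 0.14, adjusted p = 0.0194), a call kept in 3 of 8 leave-one-out fits. It was -0.77 within Tet1-WT (adjusted p = 0.00959) and -0.14 within Tet1-KO libraries (adjusted p = 0.679). Setdb1 averaged 269 ± 44.1 CPM in males and 392 ± 132 in females, which overlapped, and differed by -0.49 (log2, SE 0.16, adjusted p = 0.0215), with 4 of 8 leave-one-out fits keeping the call. For Setdb1 the difference was -1.05 within Tet1-WT (adjusted p = 0.00224) and 0.07 within Tet1-KO libraries (adjusted p = 0.886).

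Only Setdb1 was called for the difference between the stage changes of the sexes, where 18.2% of all genes were called. Its male change minus its female change was -0.66 (log2, SE 0.22, adjusted p = 0.0491), a value close to the threshold that stayed called in 4 of 16 leave-one-out fits. It was -1.33 within Tet1-WT (adjusted p = 0.0116) and 0.01 within Tet1-KO libraries (adjusted p = 1.0).

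The Tet1 comparisons ask what loss of Tet1 did at one stage and sex. Of the 5 genes, Ehmt1 was lower in the E10.5 libraries labelled Tet1-KO and Setdb1 was lower in E14.5 Tet1-KO females, and these were the only single-group calls. At E10.5 1 of 5 was called where 8.81% of all genes were, and at E14.5 1 of 5 in females where 6.65% were. In E12.5 males (1.06% of all genes called), E12.5 females (1.29%) and E14.5 males (0.102%) edgeR called 0 of 5. At an unadjusted p under 0.05 stood 1, 1 and 3 of 5, against 2562, 2270 and 1815 of all 17567 genes. DESeq2 and limma voom also called 0 of 5 in these 3 groups.

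In E10.5 PGCs the libraries labelled Tet1-KO had 53.9 and 84.8 CPM of Ehmt1 and those labelled Tet1-WT 152 and 140.2 CPM, which do not overlap. The difference was -1.07 (log2, SE 0.20, edgeR adjusted p = 0.00573), 2.10 times lower, and it stayed called in all 4 leave-one-out fits. These libraries also differ in the marker sums and overlap in Tet1 itself, as given above. With the mesenchyme level as a covariate the Ehmt1 difference was -0.74 (adjusted p = 0.284), and in a fit of only these 4 libraries it was -1.08 (adjusted p = 0.192). The slope of the covariate rests on differences between libraries of the same group, so the part of the marker differences in it was not tested.

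At the later stages Ehmt1 had 73.3 and 79.0 CPM in Tet1-KO and 99.0 and 116 in Tet1-WT males, and 79.4 and 92.0 in Tet1-KO and 85.5 and 112 in Tet1-WT females at E12.5. At E14.5 it had 89.5 and 90.4 CPM in Tet1-KO and 67.0 and 64.6 in Tet1-WT males, and 106 and 92.5 in Tet1-KO and 118 and 106 in Tet1-WT females. The E14.5 males were the only group in which both Tet1-KO libraries lay above both Tet1-WT libraries, and that difference of 0.45 was not called (log2, SE 0.20, adjusted p = 0.446). Averaged over the 5 stage and sex groups, 1 of 5 genes was called where 13.9% of all genes were: Ehmt1, at -0.30 (log2, SE 0.09, adjusted p = 0.0374). Without the E10.5 libraries the average was -0.10 (adjusted p = 0.666), with the mesenchyme covariate it was 0.12, and 3 of 20 leave-one-out fits kept the call.

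**Figure D4:**
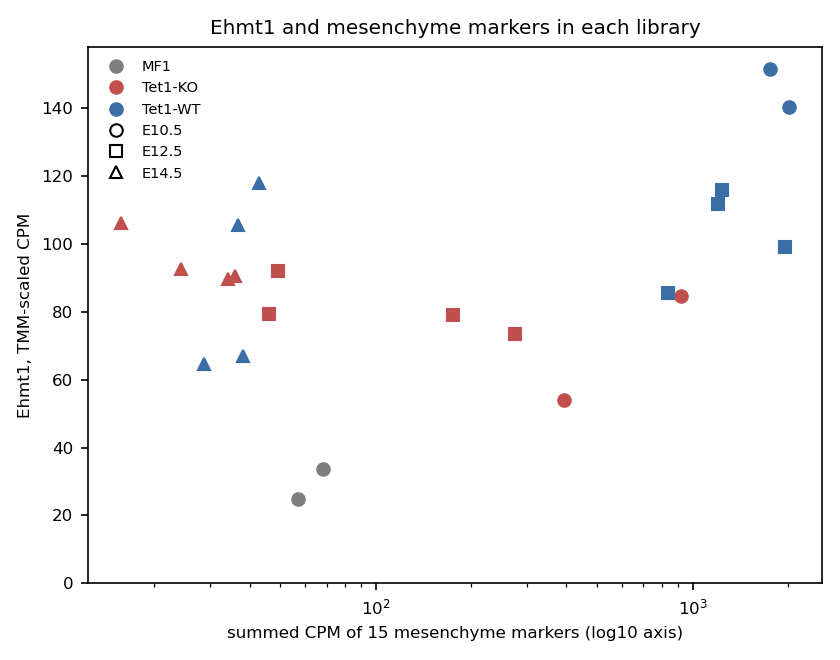
Ehmt1 CPM (linear axis from 0) against the summed CPM of 15 mesenchyme markers (log10 axis), 1 point for each of the 22 libraries, coloured by genotype or cross and shaped by stage. The 2 E10.5 libraries labelled Tet1-WT lie highest for Ehmt1, at 140.2 and 152 CPM, with marker sums of 1752 and 2010 CPM, and the 2 MF1 libraries lie lowest for Ehmt1, at 24.8 and 33.8 CPM; the E14.5 libraries span 64.6 to 118 CPM at marker sums of 15.8 to 42.7 CPM.

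Setdb1 in E14.5 females had 288 and 272 CPM in Tet1-KO and 537 and 471 in Tet1-WT PGCs. The Tet1-KO libraries lie at the level of E14.5 males and the Tet1-WT libraries far above, without overlap. The difference was -0.85 (log2, SE 0.22, edgeR adjusted p = 0.0316), 1.80 times lower. It kept its sign but was called in 0 of the 4 leave-one-out fits (adjusted p 0.0639 to 0.267), and with the mesenchyme covariate it was -1.12 (adjusted p = 0.0313). Mesenchyme marker sums were low in all 4 libraries, at 15.8 and 24.4 CPM in Tet1-KO and 36.8 and 42.7 in Tet1-WT females, and germ cell sums were 5566 to 5884 in Tet1-KO and 6127 to 6457 in Tet1-WT females, although 8 of the 12 germ cell markers were called higher in Tet1-KO.

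In E12.5 females Setdb1 was higher in both Tet1-KO than in both Tet1-WT libraries, by 0.51 (log2, SE 0.22, adjusted p = 0.334, not called). The difference between the E14.5 and E12.5 effects in females was called for 1 of 5 genes, where 1.3% of all genes were: Setdb1, at -1.35 (log2, SE 0.31, adjusted p = 0.0441), a call kept in 1 of 8 leave-one-out fits. With the mesenchyme covariate it was -0.45 (adjusted p = 0.947). Between E14.5 males and females 1.43% of all genes were called and edgeR called 0 of 5, with 4 of 5 at an unadjusted p under 0.05; Setdb1 differed by 1.11 (log2, SE 0.31, adjusted p = 0.0879), which DESeq2 called (adjusted p = 0.0119) and limma voom too (adjusted p = 0.0352). Between E14.5 and E12.5 males (0.803% of all genes called) edgeR called 0 of 5, with 3 of 5 at an unadjusted p under 0.05, and Ehmt1 differed by 0.95 (log2, SE 0.28, adjusted p = 0.123; 0.0245 by DESeq2 and 0.0361 by limma voom). Between E12.5 males and females 0.0% of all genes were called by edgeR, with 0 of the 5 at an unadjusted p under 0.05. For these differences of effects, the share of all genes at an unadjusted p under 0.05 is not given here.

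The other 3 genes passed the test in no Tet1 comparison, although some of their libraries were separated. Ehmt2 in E14.5 males had 17.3 and 32.4 CPM in Tet1-KO and 41.7 and 55.6 in Tet1-WT PGCs, without overlap, a difference of -0.97 (log2, SE 0.33, adjusted p = 0.291). Suv39h1 in the same males was higher in both Tet1-KO libraries, by 0.46 (log2, SE 0.18, adjusted p = 0.375). Suv39h2 had 21.3 and 21.4 CPM in the E10.5 libraries labelled Tet1-KO and 14.46 and 13.8 in those labelled Tet1-WT, a difference of 0.59 (log2, SE 0.27, adjusted p = 0.183). In E14.5 males Suv39h2 had 12.515 and 13.6 CPM in Tet1-KO and 19.4 and 17.7 in Tet1-WT PGCs (-0.50, SE 0.27, adjusted p = 0.555). Each of these differences separated the libraries of its 2 groups and none was called. The share of all genes whose libraries separate in this way is not given here.

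**Figure D5:**
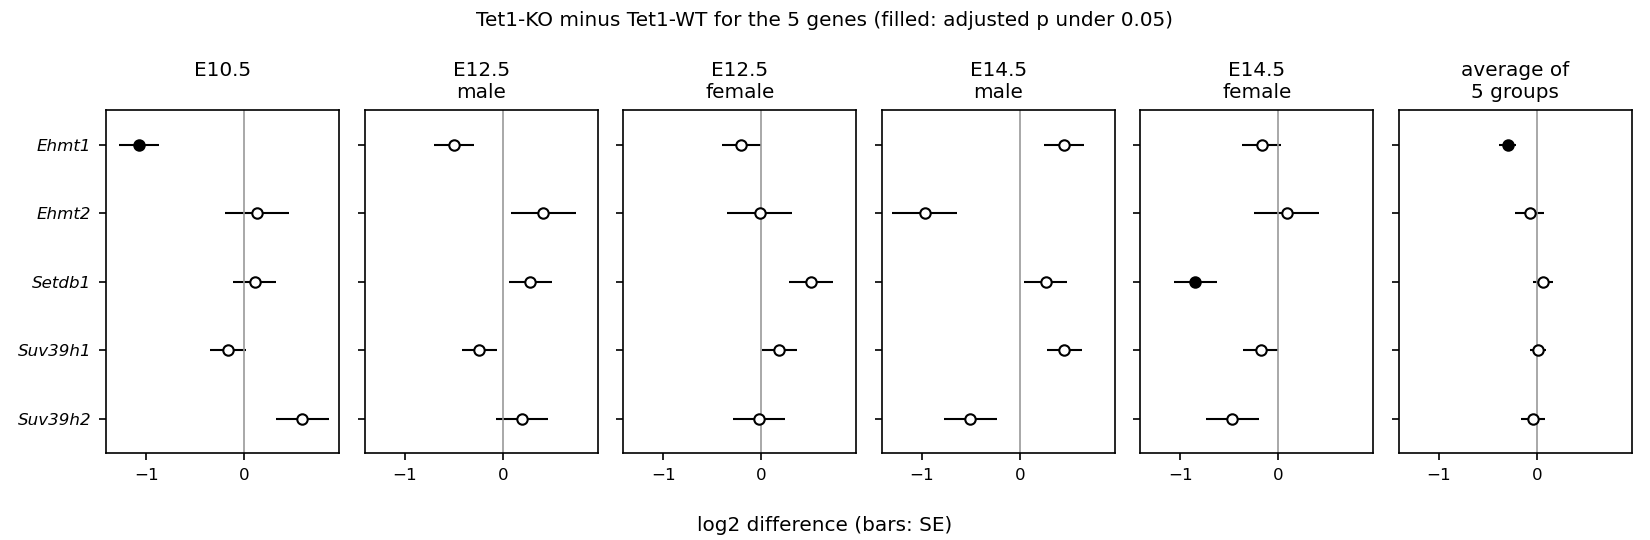
Log2 difference of Tet1-KO minus Tet1-WT (x axes, bars are SE) for the 5 genes at each stage and sex and for the average of the 5 groups; filled points have an edgeR adjusted p under 0.05. Only Ehmt1 at E10.5 (-1.07), Setdb1 in E14.5 females (-0.85) and the Ehmt1 average (-0.30) are filled.

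The MF1 libraries are a second set of wild-type E10.5 PGCs, and Ehmt1, Suv39h1 and Suv39h2 were lower in both of them than in either E10.5 library labelled Tet1-WT. The 2 sets differ in cross, RNA kit, cell number and depth, and these cannot be told apart from one another. Scaled together, Ehmt1 had 24.8 and 33.8 CPM in MF1 and 154 and 139 in Tet1-WT libraries, Suv39h1 52.3 and 32.4 in MF1 and 92.7 and 106 in Tet1-WT, and Suv39h2 3.96 and 8.54 in MF1 and 14.7 and 13.7 in Tet1-WT. Setdb1 had 162 and 76.1 CPM in MF1 and 97.4 and 130 in Tet1-WT, and Ehmt2 40.9 and 26.7 in MF1 and 31.4 and 25.9 in Tet1-WT, both overlapping. The edgeR fit of these 4 libraries called 0 of 5 genes, where 0.606% of 15500 genes were called, while DESeq2 called 2. In edgeR 2 of the 5 stood at an unadjusted p under 0.05, for which no share of all genes is given. Ehmt1 differed by -2.32 (log2, SE 0.36, edgeR adjusted p = 0.0613, DESeq2 8.33e-07) and Suv39h1 by -1.23 (SE 0.39, edgeR 0.162, DESeq2 0.0485). Germ cell marker sums were 5562 to 6042 CPM in MF1 and 1462 to 1799 in Tet1-WT libraries, and mesenchyme sums 57.1 to 68.4 in MF1 and 1752 to 2010 in Tet1-WT, and their part in the difference was not tested. Ehmt1 was below Ehmt2 per kilobase in both MF1 libraries, at ratios of 0.411 and 0.857.

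Further chromatin genes were taken from 4 lists: 12 listed as partners of the H3K9 writers, 9 listed as readers of methylated H3K9, 11 H3K9 demethylases and 25 other histone lysine methyltransferases. The list names are labels used here, and binding to methylated H3K9 was not tested for any listed gene, Zmynd8 among them. Mphosph8 and Cdyl are in both of the first 2 lists. They were chosen with earlier results of these data known, so their counts are descriptions.

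Between E12.5 and E14.5 females 5 of 12 partners rose and 4 fell (list median 0.15, all genes -0.07, log2; 13.6% of all genes rose and 17.7% fell). Setdb2, a Setdb1 relative, rose by 2.14 (SE 0.22, adjusted p = 3.47e-06) and Atf7ip2, a relative of the Setdb1 cofactor Atf7ip, by 1.98 (SE 0.21, adjusted p = 6.2e-06). Pphln1 and Mphosph8, 2 subunits of the HUSH complex that acts with Setdb1 in human cells, rose by 1.20 and 0.98 (edgeR adjusted p = 1.42e-05 and 1.85e-05). Cdyl, which binds G9a, fell by 2.60 (log2, adjusted p = 1.51e-06). Among 9 readers 2 rose and 4 fell, among 11 demethylases 3 rose and 1 fell, and among 25 other methyltransferases 9 rose and 4 fell, including Prdm9, the H3K4 enzyme that directs meiotic recombination sites, at 4.39 (SE 0.37, adjusted p = 7.47e-07).

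In E14.5 females 1 of 12 partners was higher and 4 were lower in Tet1-KO (list median -0.40, all genes -0.03, log2; 3.36% of all genes higher and 3.29% lower). Mphosph8 had 475 and 340 CPM in Tet1-KO and 1005 and 844 in Tet1-WT females, a difference of -1.18 (SE 0.17, edgeR adjusted p = 0.00208). Setdb2 had 141 and 83.4 CPM in Tet1-KO and 297 and 254 in Tet1-WT (-1.30, SE 0.30, adjusted p = 0.0179), and Atf7ip2 had 153 and 112 in Tet1-KO and 341 and 259 in Tet1-WT (-1.18, SE 0.30, adjusted p = 0.0261). Pphln1 differed by -1.003 (SE 0.20, adjusted p = 0.00903) and Cdyl by 1.18 (SE 0.33, adjusted p = 0.0457). Of the 9 readers 1 was higher and 1 lower, both of them partners as well, of the 11 demethylases 0 were higher and 1 lower, and of the 25 other methyltransferases 0 were higher and 4 lower. The lower ones include Phf8, an H3K9 demethylase, at -1.08 (adjusted p = 0.0306) and Prdm9 at -2.43 (adjusted p = 0.00756). The libraries of the 2 genotypes did not overlap for Mphosph8, Setdb2 or Atf7ip2.

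Between males and females at E14.5, 4 of 12 partners were higher and 6 lower in males (19.9% of all genes higher and 17.7% lower). Setdb2 differed by -2.15 (log2, SE 0.22, adjusted p = 1.91e-06) and Resf1, a Setdb1 cofactor, by 1.77 (SE 0.16, adjusted p = 8.14e-07). Of the readers 2 were higher and 3 lower, of the demethylases 3 higher and 1 lower, and of the other methyltransferases 5 higher and 13 lower.

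Between E12.5 and E14.5 males 2 of 12 partners rose and 3 fell (10.8% of all genes rose and 11.6% fell). Trim28, the corepressor through which zinc finger proteins recruit Setdb1, fell by 0.55 (log2, SE 0.11, edgeR adjusted p = 0.00194), and Mphosph8 rose by 0.62 (SE 0.12, adjusted p = 0.00181). Of the readers 2 rose and 2 fell, of the demethylases 3 rose and 0 fell, and of the other methyltransferases 4 rose and 6 fell, Ezh2, the H3K27 enzyme, among the lower ones at -1.19 (SE 0.16, adjusted p = 0.00013).

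Between the genotypes in E12.5 males, E12.5 females and E14.5 males, edgeR called 0 genes of the 4 lists. At an unadjusted p under 0.05 stood, in that order of groups, 4, 1 and 1 of the 12 partners and 3, 1 and 1 of the 9 readers. For the 11 demethylases it was 0, 0 and 1, and for the 25 other methyltransferases 1, 6 and 4. Over all 17567 genes it was 2562, 2270 and 1815, in the same order.

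In the E10.5 libraries labelled Tet1-KO 4 of 12 partners were higher and 0 lower (4.1% of all genes higher and 4.7% lower), the largest being Cdyl at 1.45 (log2, SE 0.32, adjusted p = 0.0126). Among the 9 readers 2 were higher, the partners Cdyl and Mphosph8, and 2 were lower, with a list median of 0.20. Uhrf1, a reader that links H3K9 methylation to maintenance of DNA methylation, was lower, at -1.43 (SE 0.29, adjusted p = 0.00851), and so was the HP1 gene Cbx5, at -0.82 (SE 0.18, adjusted p = 0.013). Of the 11 demethylases 0 were higher and 1 lower, and of the 25 other methyltransferases 1 was higher and 1 lower. These libraries carry the marker differences given above, whose part in these values was not tested.

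The genes whose pattern was most like each member were named by the root mean square of log2 differences over the 10 group means, after centring each gene on its own mean, among 9644 genes. The closest were Pafah1b2 for Ehmt1 (0.135), Slc38a6 for Ehmt2 (0.156), Nhej1 for Setdb1 (0.132), Phc3 for Suv39h1 (0.194) and Bag1 for Suv39h2 (0.11). Bub1 and Ddx24 came next for Setdb1, at 0.148 and 0.156. Between members, Setdb1 and Suv39h1 were closest, at 0.453, and Ehmt2 and Suv39h1 farthest apart, at 0.957.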

How the data were processed

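The authors deposited 2 tables of raw counts per gene. Per the submitters' processing notes, reads had been handled with Trimmomatic, TopHat2 2.0.2, Bowtie 0.12.8 and HTSeq 0.5.3p9 on mm9; neither strand handling nor the fate of reads with several matches is given in the sources used here. Per the labels, cDNA was amplified from small cell numbers, so reads are not independent molecules.

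Counts were fitted with edgeR 4.0.16 (R 4.3.3): filterByExpr (minimum count 10, minimum total 15), TMM factors, a robust quasi-likelihood fit with 1 coefficient for each of 10 groups, 20 libraries, 10 residual degrees of freedom and a common biological coefficient of variation of 0.46. The MF1 comparison used a separate fit of 4 libraries over 15500 genes (2 residual degrees of freedom, 0.78). Differences are log2, the SE is the difference over the root of F, and p-values were Benjamini-Hochberg adjusted over all genes tested, called under 0.05. The script was tested on simulated data. Alternatives were DESeq2 1.42.0, limma 3.58.1 voom with quality weights, RLE factors, no filter, fewer libraries, a replicate-number term, a mesenchyme covariate and leave-one-out fits. The mesenchyme covariate was added to the group coefficients, so its slope rests only on differences between the 2 libraries of each group.

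The columns of 8 Tet1-KO libraries carry no replicate number and were mapped to their group only. Named list genes are up to 4 called ones with the smallest adjusted p in each list and comparison; Cdyl and Mphosph8 count under 2 lists. Similar genes are the 3 nearest to each member among those with a mean of at least 5 CPM, on log2(CPM + 1). Members and lists were chosen with earlier results of these data known. Exon lengths, overlaps and chromosomes came from a later annotation than the one counted, and promoter windows from RefSeq, which held 7 windows for the 5 genes.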

Additional observations from a re-analysis of the deposited data

Results flagged for a closer look

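In an interaction test, the change from E12.5 to E14.5 differed between the sexes for 21 of the 60 genes of the members and the 4 lists. Over all genes tested, 18.2% were called. The values of the 16 named by the rule are given as the male minus the female change (log2, edgeR, adjusted over all genes). It was -0.66 for Setdb1. Among partners and readers it was 1.97 for Resf1, -1.89 for Setdb2, -1.49 for Morc2a and -1.12 for Pphln1. It was 2.12 for Zmynd8, 0.74 for Cbx3, -1.19 for Uhrf1 and 1.07 for Cdyl. Among demethylases it was -1.44 for Phf8, 1.07 for Kdm3a and -0.92 for Jmjd1c. Among other methyltransferases it was -4.11 for Prdm9, -1.73 for Kmt5c, -0.93 for Nsd2 and -0.84 for Ezh2.

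The Tet1-KO effect in E14.5 males minus that in E14.5 females was 1.22 for Mphosph8 and 1.53 for Smyd3. The Tet1-KO effect in E14.5 females minus that in E12.5 females was -1.35 for Setdb1, -1.25 for Mphosph8, -1.95 for Atf7ip2, -1.23 for Pphln1 and -1.22 for Smyd3. The Setdb1 value was called in 1 of 8 leave-one-out fits.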

How the results depend on the processing

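Of the single-gene results, 626 stayed on the same side of the threshold when 1 library was left out, 69 lost the call and 5 gained one. Under the other settings 628 stayed on the same side, 43 lost the call, 14 gained one and 5 turned direction. A turn of direction was counted only where a call was made in either fit. Uncalled values that changed sign can therefore be among the 626 and the 628. With the mesenchyme covariate the average Ehmt1 difference of Tet1-KO and Tet1-WT turned to 0.12, and Setdb1 turned to -0.081 between E10.5 and E12.5 females and to -0.63 between E12.5 and E14.5 males. In Tet1-KO libraries alone Setdb1 turned to 0.068 between E14.5 males and females and to 0.011 for the difference of stage changes. The cause was not tested.

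The number of the 5 genes called also moved. For Tet1-KO and Tet1-WT at E10.5 it was 1, and 0 with only those groups fitted or with the covariate. For the average it was 1, and 0 without the filter, without E10.5 or with the covariate, and 0 to 1 in leave-one-out fits. For E14.5 females it was 1, and 0 in each of the leave-one-out fits. Between E10.5 and E12.5 females it was 3, then 1 with voom, in Tet1-WT alone and in numbered libraries, 0 with the covariate and 1 to 3 in leave-one-out fits. Between E10.5 and E12.5 males it was 1, and 0 in Tet1-WT alone, in numbered libraries and with the covariate. Between E12.5 and E14.5 females it was 2, then 1 in Tet1-KO alone and 0 with the covariate. Between E12.5 and E14.5 males it was 3, then 1 in Tet1-KO alone and in numbered libraries, 0 with the covariate and 0 to 3 in leave-one-out fits. Between the sexes it was 1 at E12.5, and 0 in Tet1-WT alone, in numbered libraries and with the covariate, and 4 at E14.5, then 1 in Tet1-KO alone and 2 to 4 in leave-one-out fits. For the difference of stage changes it was 1, then 2 in Tet1-WT alone, 0 in Tet1-KO alone and in numbered libraries, and 0 to 1 in leave-one-out fits. For the Tet1-KO effect it was 0 between E14.5 males and females and 1 with DESeq2, voom or no filter. It was 1 between E14.5 and E12.5 females, 0 with only those groups or the covariate, and 0 to 1 in leave-one-out fits. It was 0 between E14.5 and E12.5 males and 1 with DESeq2, voom or only those groups. For MF1 it was 0, then 2 with DESeq2 or all 22 libraries, 1 without the filter and 0 to 2 in leave-one-out fits.

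Same-numbered libraries of the numbered groups deviated together by correlations of only -0.051 to 0.06, so no shared shift by number was seen. Such correlations cannot show whether same-numbered libraries shared a litter or a batch. A replicate block could be fitted for the 12 numbered libraries and for MF1. It left the counts of the numbered libraries (chosen as a base after seeing the data) as they were without it, at 1, 0, 1, 0 and 0 in the stage and sex comparisons given above, and called 1 gene, Ehmt1, for MF1.

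Over all genes, DESeq2 called 2894, no filter 2578, voom 250 and the 4 libraries alone 0 genes for Tet1-KO at E10.5, against 1547. For E14.5 females these were 2228, 1857, 2050 and 537 against 1168, for E14.5 males 386, 468, 117 and 0 against 18, and for MF1 DESeq2 called 2778 and all 22 libraries 4318 against 94. The lowest raw count in a library of the Tet1 cross was 163 for Ehmt2 and 194 for Suv39h2, and at least 787 for the other 3 genes, and the SE of a Tet1-KO difference within 1 stage and sex was 0.27 to 0.33 for Ehmt2 and Suv39h2 and 0.18 to 0.22 for the others.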
